A study of Mus musculus with 30 samples.

Results

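The genes described here are 46 mouse genes of ribosome biogenesis and RNA polymerase I, taken by their symbols from the 46113 genes counted in every library. They were taken by symbol, with earlier results of these data known. All 46 were found, and all 46 passed the filter on low counts in every comparison. For description they were sorted by textbook role into RNA polymerase I and its factors (8 genes), box C/D small nucleolar ribonucleoproteins (4 genes), box H/ACA small nucleolar ribonucleoproteins (4 genes), small subunit assembly (12 genes), large subunit assembly (13 genes) and abundant nucleolar proteins and chaperones (5 genes).

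The study sorted bone marrow of C57BL/6 mice, 8 to 10 weeks old, and made 30 RNA libraries of 100 cells each in 7 groups. The haematopoietic stem cells (HSCs) carried the surface markers CD150 and EPCR and lacked CD48 and lineage markers, while haematopoietic progenitor cells (HPCs) carried CD150, EPCR and CD48 and lacked lineage markers. The first experiment held HSCs of untreated mice (4 libraries) and HSCs taken 6 days (4 libraries) or 10 days (6 libraries) after 5-fluorouracil (5-FU), a pyrimidine analogue toxic to dividing cells. In the culture experiment HSCs from untreated mice were sequenced without culture (4 libraries) or after 1 day in culture (4 libraries), and the CD48 experiment held CD48- HSCs and CD48+ HPCs (4 libraries each), both taken 10 days after 5-FU. The labels give no dose of 5-FU and no culture medium, and they do not say whether libraries of a group came from separate mice. The p-values therefore measure the spread between these libraries, which may in part be technical.

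RNA polymerase I transcribes the ribosomal RNA genes into a long precursor inside the nucleolus. Box C/D and box H/ACA particles, guided by small nucleolar RNAs, methylate and pseudouridylate that precursor, and assembly factors fold, cleave and export the small and large subunits. Dormant HSCs are known for low protein synthesis, and dividing progenitors are known for a greater need of ribosomes.

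Values are given as CPM, counts per M exon reads of the normalised library, with their standard deviation (SD) over libraries. Changes are log2 fold changes with their standard error (SE) from edgeR's quasi-likelihood test, and a gene is said to have risen or fallen when its Benjamini-Hochberg adjusted p over all tested genes was under 0.05. In pooled cells, fewer cells of a type and less RNA per cell cannot be told apart, and CPM is relative to the other transcripts of a library.

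Depth was 5.21 to 12.2 M exon reads per library. All 10 HSC markers examined were detected in every group, with summed levels of 4527 to 5540 CPM in untreated and uncultured HSCs and 2122 to 3738 CPM in the other 5 groups. Erythroid markers (12 genes) summed to 3144 to 7252 CPM in untreated HSCs, to 1005 to 1262 CPM at day 6 and to 859 to 2016 CPM at day 10. Hba-a2, Slc4a1 and Car1 were at 0 in all day 6 and all cultured libraries, but not all 12 were lost. Hbb-bt had a mean of 342 CPM at day 6 and 533 CPM in culture, and Car2 of 756 and 396 CPM. Epor had a mean of 10.2 CPM untreated and 16.2 CPM at day 6. Uncultured replicates 1 and 3 (3691 and 5417 CPM) and CD48- replicate 3 (10147 CPM) stood above the other libraries of their groups in erythroid markers. Macrophage markers (12 genes) summed to 2057 CPM in day 6 replicate 1 and to 1789 CPM in CD48+ replicate 3. C1qa, C1qb, Vcam1, Cd5l and Adgre1 were at 0 in all cultured libraries, where Lyz2 had a mean of 109 CPM and Cd68 of 24.8 CPM. The numbers of the 46 genes called are also given without these 5 libraries where they enter. Each library was set against the others of its group, so the untreated libraries, high throughout in erythroid markers, were kept. The macrophage markers were also called between groups. At day 6, 11 of the 12 rose (median log2 change 1.83), and 6 were above untreated at day 10 (median 1.69). In CD48+ HPCs 7 rose (median 1.93), with 0 lower in each comparison. However, day 6 replicates 2, 3 and 4 summed to 265, 243 and 378 CPM, against 260 to 455 CPM untreated. CD48+ replicates 1, 2 and 4 summed to 830, 638 and 403 CPM, against 345 to 637 CPM in CD48- HSCs. All 12 overlapped between groups in HPCs, and 3 did not overlap at day 6. In culture 1 of 9 tested was higher and 5 lower. The part of these transcripts in the values of the 46 genes was not tested.

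Promoters are shown for Pes1 and Rrn3, which are described in every comparison and whose promoter holds a canonical E-box, the motif CACGTG, which reads the same on both strands and is known to be bound by Myc with Max. The windows run from 250 bases before to 50 bases after the gene start in RefSeq (build GRCm38.p6), 5′ to 3′ on the gene's strand, with the E-box in capitals. The Pes1 window is chr11:3963725-3964024 on the plus strand, and its E-box lies at bases 2 to 7 counted from the RefSeq start, which is not the gene start of the count files given below. The Rrn3 window is chr16:13780449-13780748 on the plus strand, and its E-boxes lie at bases -215 to -210 and -48 to -43, where base -1 is the last before the start.
Pes1: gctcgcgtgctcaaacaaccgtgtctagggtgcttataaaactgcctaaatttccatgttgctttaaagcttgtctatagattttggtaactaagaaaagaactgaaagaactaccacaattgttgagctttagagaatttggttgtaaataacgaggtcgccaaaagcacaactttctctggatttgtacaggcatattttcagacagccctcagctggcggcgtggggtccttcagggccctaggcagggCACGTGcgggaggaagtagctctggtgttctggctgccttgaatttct
Rrn3: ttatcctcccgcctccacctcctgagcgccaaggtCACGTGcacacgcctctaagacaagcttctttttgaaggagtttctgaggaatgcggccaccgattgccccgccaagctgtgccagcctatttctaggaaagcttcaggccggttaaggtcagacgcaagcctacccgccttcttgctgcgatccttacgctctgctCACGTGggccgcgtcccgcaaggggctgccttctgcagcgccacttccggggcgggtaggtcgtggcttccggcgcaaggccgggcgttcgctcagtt

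A RefSeq window was found for 41 of the 46 genes, and 9 of them (22.0%) held an E-box: Nop2, Ltv1, Utp20, Pes1, Mybbp1a, Tsr1, Nle1, Rrn3 and Wdr43. The share was 8.09% over all 27025 genes with a window, 11.6% over the 10324 with a window that were tested at day 6, 17.2% of 99 other ribosome biogenesis genes and 10.3% of 58 cytosolic ribosomal protein genes. The NRF1 motif, searched on both strands, was in 0 of the 41 windows and in 1.07% of all windows. A match is a description of letters in this window only. For the genes with an E-box the median log2 change was 0.64 against 0.62 for the 32 without at day 6, and 0.88 against 0.90 in culture. It was 0.13 against 0.21 at day 10 compared with untreated, -0.51 against -0.48 at day 10 compared with day 6, and 0.44 against 0.52 in HPCs. In HPCs 3 of the 9 and 18 of the 32 were called, a difference that was not tested.

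**Figure D1:**
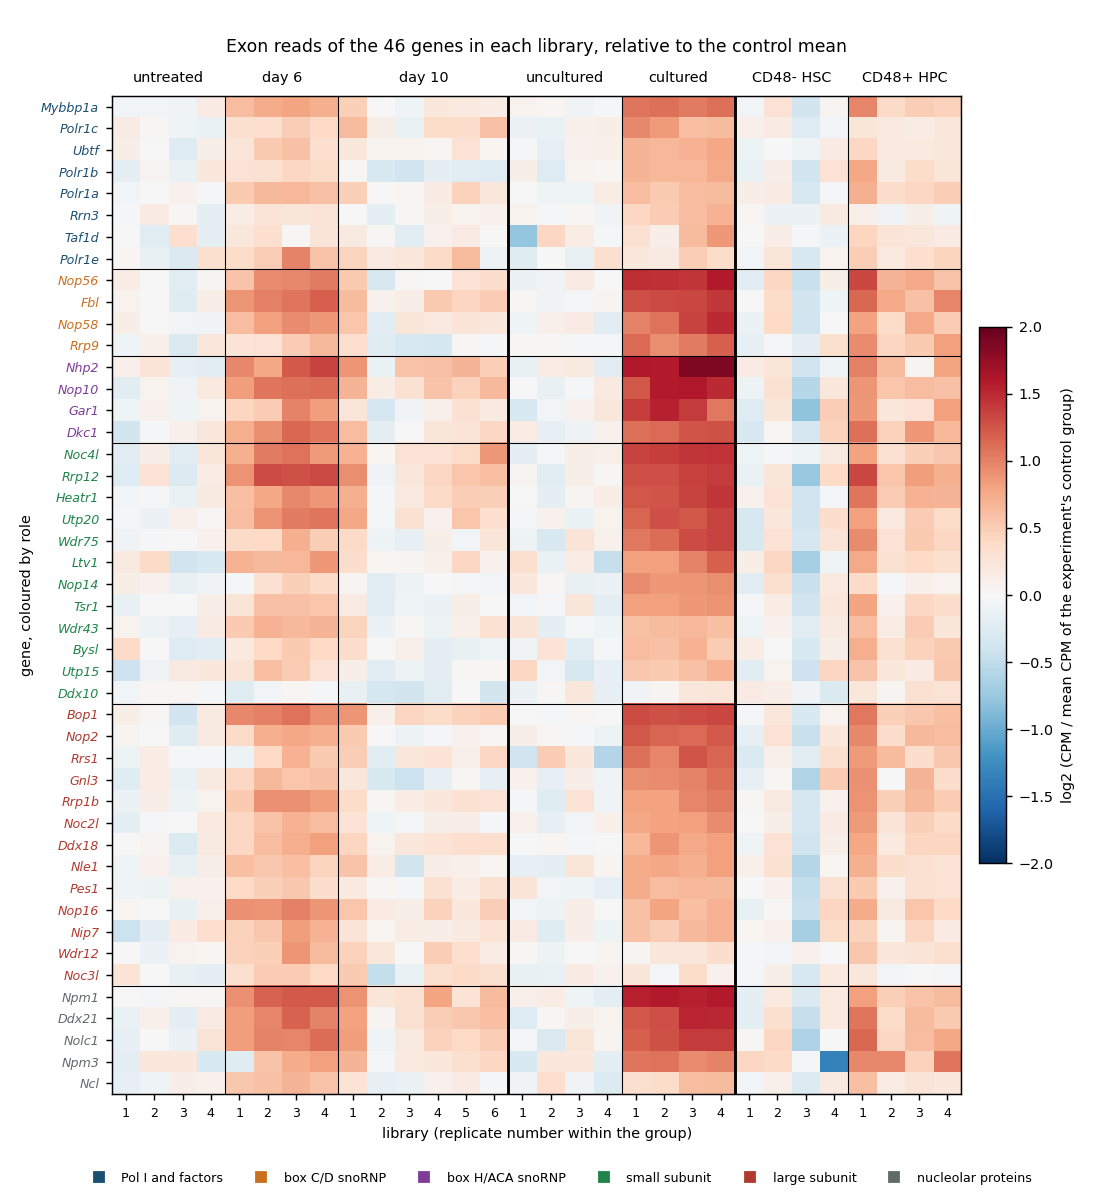
Log2 of the CPM of the 46 genes in the 30 libraries over the mean of the control group of each experiment (untreated, uncultured or CD48- HSCs), with genes grouped by role and 1 column per library. Day 6 and cultured libraries are high in nearly every row, and the CD48- replicate 3 column is the lowest of its group in 39 rows.

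Summed over the 46 genes, the level was 3459 ± 197 CPM (SD, n = 4) in untreated HSCs, 5589 ± 412 CPM (n = 4) at day 6 and 3960 ± 492.8 CPM (n = 6) at day 10. It was 3590 ± 47.7 CPM in uncultured and 6918 ± 302 CPM in cultured HSCs (n = 4 each), and 3000 ± 471 CPM in CD48- HSCs and 4281 ± 669 CPM in CD48+ HPCs (n = 4 each). The genes thus took 0.355% of exon reads in untreated HSCs and 0.668% after culture. Cultured HSCs had the highest group mean in 42 genes and day 6 HSCs in 4, while CD48- HSCs had the lowest in 33, untreated HSCs in 8 and uncultured HSCs in 5. This order spans experiments made separately, so group and experiment cannot be told apart in it. The 2 groups of HSCs taken at day 10 came from separate experiments, with sums that differed (3960 and 3000 CPM), and were not tested against each other. Per kilobase of exon, the highest levels in untreated HSCs were those of Mybbp1a (96.9 CPM per kb), Noc2l (93.3 CPM per kb) and Fbl (80.2 CPM per kb). Polr1e was the lowest at 5.64 CPM per kb. After culture Mybbp1a and Fbl were again the highest, both at 210 CPM per kb.

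The first comparison asked how HSCs changed 6 days after 5-FU. Ribosome biogenesis mRNAs were higher almost throughout: 41 of the 46 rose and 0 fell, against 25.7% of all tested genes that rose. In 39 of the 46 every day 6 library lay above every untreated library, against 23.9% of all tested genes. The median log2 change was 0.63, with -0.04 over all tested genes. The largest rises were in Rrp12, Npm1 and Nhp2, each above 2-fold, as were Fbl, Nop10 and Ddx21. The 5 that did not pass were Taf1d, Npm3, Rrs1, Noc3l and Ddx10. Without day 6 replicate 1, the library with macrophage transcripts and the lowest of its group in 39 of the 46 genes, 43 rose.

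Of RNA polymerase I and its factors, 7 of 8 rose at day 6, with a median log2 change of 0.41, the smallest of the 6 roles. Polr1a, the largest subunit of the enzyme (chr6:71909053-71979435, mm10, plus strand), measured 131, 136, 144 and 132 CPM in untreated HSCs and 196, 213, 215 and 204 CPM at day 6. The groups did not overlap, and the log2 change was 0.61 ± 0.10 (SE, adjusted p = 0.00013). Polr1b, the second largest subunit, measured 105, 125, 109 and 139 CPM untreated and 146, 147, 159 and 154 CPM at day 6. All day 6 libraries were higher, by 0.34 ± 0.10 (SE, adjusted p = 0.0082). Ubtf, the factor that bends ribosomal DNA and keeps it open, measured 157, 144, 121 and 158 CPM untreated and 171, 209, 218 and 183 CPM at day 6. It rose by 0.43 ± 0.10 (SE, adjusted p = 0.0021) without overlap. Rrn3, which recruits the polymerase to its promoter (chr16:13780699-13814841, mm10, plus strand), measured 78.9, 90.7, 82.5 and 71.2 CPM untreated and 89.2, 96.1, 95.2 and 96.9 CPM at day 6. The groups overlapped, since untreated replicate 2 was above day 6 replicate 1, and the small rise of 0.22 ± 0.09 (SE, adjusted p = 0.040) ended under 7 of 17 other settings, where the adjusted p reached 0.14.

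The modification particles changed more, with 4 of 4 box C/D and 4 of 4 box H/ACA genes higher and medians of 0.85 and 1.01. Fbl (fibrillarin, chr7:28169748-28179269, mm10, plus strand), the methyltransferase of box C/D particles, measured 97.7, 93.3, 78.8 and 102 CPM untreated and 171, 186, 194 and 213 CPM at day 6. Every day 6 library was higher, and the log2 change was 1.04 ± 0.12 (SE, adjusted p = 6.5e-06). Of the exon reads of Fbl only 6.55% were counted as unique, so its level depends on how reads shared with similar sequences were assigned. Nop56, a core protein of the same particle (chr2:130274367-130279313, mm10, plus strand), measured 82.5, 74.5, 63.6 and 77.4 CPM untreated and 110.0, 143, 144 and 152 CPM at day 6. Its groups did not overlap, with a rise of 0.88 ± 0.15 (SE, adjusted p = 0.00022). Dkc1 (dyskerin), the pseudouridine synthase of box H/ACA particles, measured 33.2, 42.2, 46.3 and 50.3 CPM untreated and 71.1, 81.6, 94.8 and 90.6 CPM at day 6. It rose by 0.98 ± 0.16 (SE, adjusted p = 0.00016), again without overlap. Nhp2, a small core protein of the same particles, was less abundant, at 11.2, 12.4, 9.27 and 8.88 CPM untreated and 20.2, 17.8, 24.5 and 26.7 CPM at day 6. All day 6 libraries were above all untreated ones, by 1.10 ± 0.20 (SE, adjusted p = 0.00034).

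Small subunit assembly factors rose in 11 of 12 (median 0.57) and large subunit assembly factors in 11 of 13 (median 0.63). Rrp12, which takes part in maturation and export of the subunits, measured 48.8, 72.01, 48.7 and 65.0 CPM untreated and 109.8, 146, 142 and 146 CPM at day 6. It had the largest rise of the 46, 1.21 ± 0.18 (SE, adjusted p = 6.3e-05), and its groups did not overlap. Heatr1, a scaffold of the early small subunit precursor, measured 106, 108, 100.3 and 125 CPM untreated and 167, 188, 214 and 199.8 CPM at day 6. All day 6 libraries were higher, by 0.81 ± 0.13 (SE, adjusted p = 0.00013). Pes1, which works in large subunit assembly with Bop1 and Wdr12 (chr11:3963808-3980004, mm10, plus strand), measured 72.7, 71.2, 80.8 and 81.2 CPM untreated and 101, 106, 111 and 97.4 CPM at day 6. It rose by 0.44 ± 0.09 (SE, adjusted p = 0.00064) without overlap, and its partners Bop1 and Wdr12 rose by 1.00 ± 0.14 and 0.63 ± 0.12 (SE). Ddx10, an RNA helicase counted here with small subunit assembly, measured 45.6, 48.6, 48.7 and 46.6 CPM untreated and 39.9, 45.7, 48.7 and 45.9 CPM at day 6. The groups overlapped, and its change of -0.07 ± 0.10 (SE, adjusted p = 0.58) was the only negative value among the 46.

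Among the abundant nucleolar proteins and chaperones 4 of 5 rose, with a median of 0.98. Npm1 (nucleophosmin, chr11:33152498-33163206, mm10, minus strand), a nucleolar chaperone, measured 82.9, 82.3, 84.9 and 85.1 CPM untreated and 157, 189, 197 and 196 CPM at day 6. The untreated libraries were within 3 CPM of each other, and the rise was 1.14 ± 0.14 (SE, adjusted p = 7.7e-06) without overlap. Of its exon reads 45.9% were unique, and its calls in the 5 comparisons of 2 groups were kept with unique reads alone. Ncl (nucleolin), which binds the precursor RNA, measured 332, 349, 405 and 394 CPM untreated and 535, 555, 593 and 547 CPM at day 6. Per kilobase of exon its untreated level was 42.5 CPM, with 48.8 CPM for Npm1. It rose by 0.59 ± 0.10 (SE, adjusted p = 0.00011), and its groups did not overlap. Ddx21, an RNA helicase of the nucleolus, measured 125, 148, 121 and 154 CPM untreated and 244, 269, 311 and 272 CPM at day 6. Every day 6 library was higher, by 1.00 ± 0.13 (SE, adjusted p = 2e-05).

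**Figure D2:**
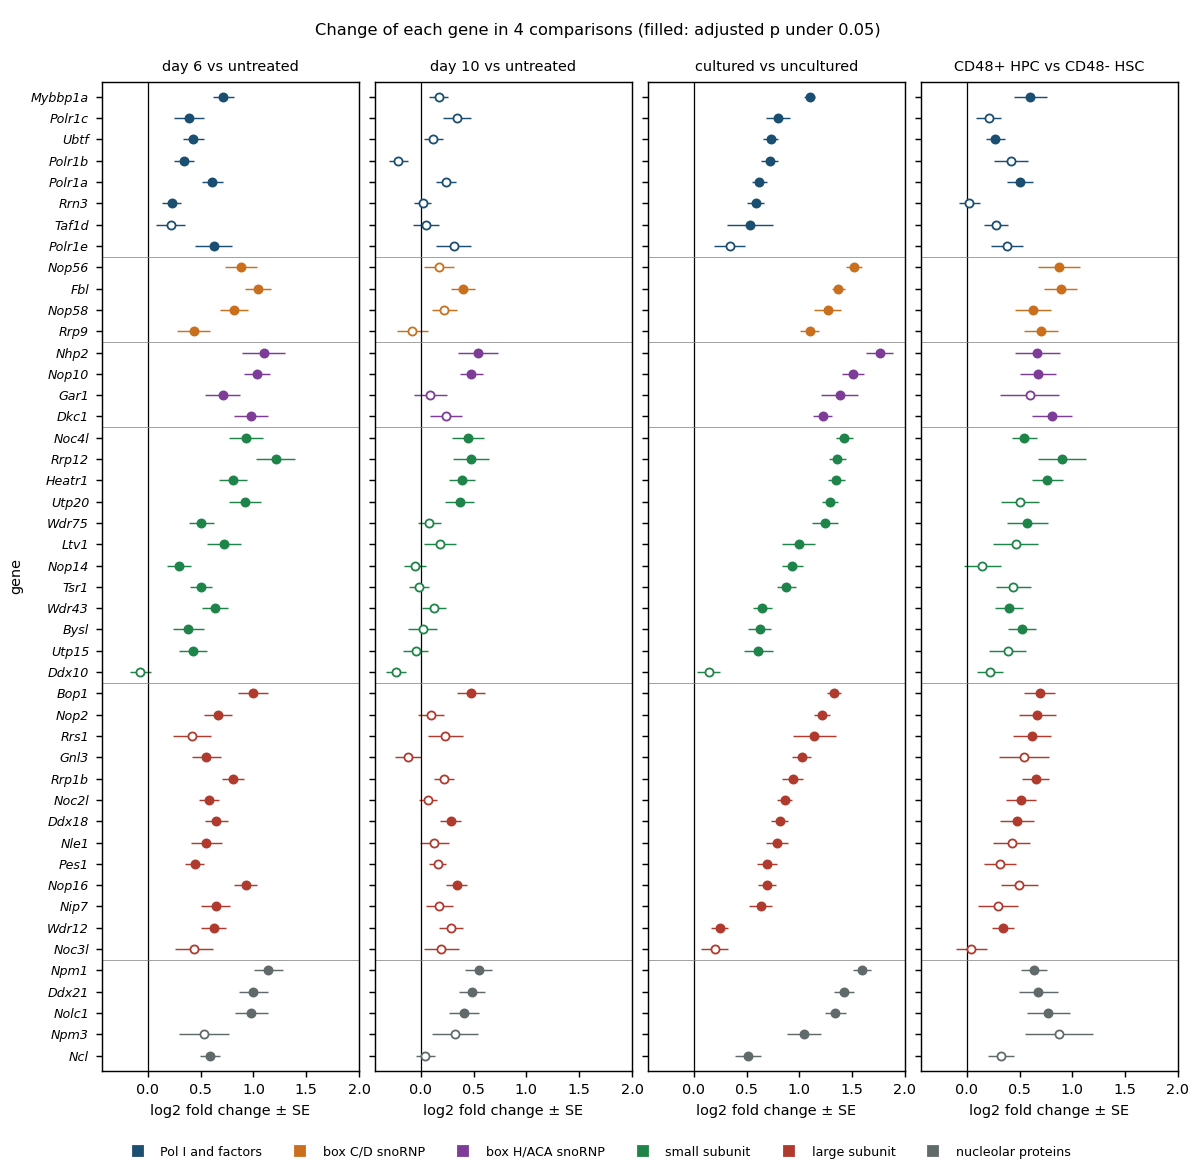
Log2 fold change with SE of each of the 46 genes in 4 comparisons (day 6 and day 10 against untreated, cultured against uncultured, CD48+ HPCs against CD48- HSCs), with genes ordered by role and filled points for an adjusted p under 0.05. The day 6 and culture points lie right of 0 for all genes but Ddx10 at day 6, and the day 10 points against untreated lie between -0.24 and 0.55.

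Day 10 was compared with untreated and with day 6 HSCs, which share libraries with the comparison above, so the 3 sets of values are not independent. Against untreated HSCs 13 of the 46 genes were still higher and 0 lower, while 19.9% of all tested genes were higher. The median log2 change was 0.19, with 0.00 over all tested genes. In 2 genes, Npm1 and Nop16, the groups did not overlap (higher in 11.9% of all tested genes). Against day 6 HSCs 38 of the 46 had fallen and 0 risen, compared with 15.9% of all tested genes that fell, and 26 did not overlap (lower in 12.1% of all tested genes), with a median of -0.51. The count against untreated HSCs was 6 without untreated replicate 3, 8 without untreated replicate 1 and 8 without day 10 replicate 1, and Polr1b was called lower in each of the last 2. The count against day 6 stayed between 28 and 39 under every other setting run, and was 37 without day 6 replicate 1.

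None of the 8 RNA polymerase I genes was called at day 10 against untreated HSCs, and 4 fell against day 6. Over the 6 libraries of day 10, Polr1a had a lowest, median and highest value of 135, 155 and 188 CPM. All were below the day 6 libraries, with a change of -0.37 ± 0.09 (SE, adjusted p = 0.0064) from day 6 and 0.24 ± 0.09 (SE, adjusted p = 0.053) from untreated. Polr1b ranged from 92.0 through a median of 101 to 122 CPM. It was below every day 6 library (-0.56 ± 0.09, SE, adjusted p = 0.00041) and differed from untreated by -0.21 ± 0.09 (SE, adjusted p = 0.069). Ubtf ranged from 148 through 152 to 178 CPM and overlapped both other groups. It fell by 0.31 ± 0.09 (SE, adjusted p = 0.017) from day 6, a call that ended without day 6 replicates 2 (adjusted p = 0.065) and 3 (0.076), and its value against untreated was 0.12 ± 0.09 (SE, adjusted p = 0.32). Rrn3 ranged from 70.6 through 83.2 to 87.5 CPM, below every day 6 library but not called (-0.21 ± 0.08, SE, adjusted p = 0.056). Against untreated HSCs its value was 0.02 ± 0.08 (SE, adjusted p = 0.88).

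Box C/D and H/ACA genes fell from day 6 in 8 of 8, and 3 of the 8 were still above untreated. Fbl ranged from 98.7 through 129 to 145 CPM at day 10. That was below every day 6 library (-0.64 ± 0.11, SE, adjusted p = 0.00066) and above untreated by 0.40 ± 0.11 (SE, adjusted p = 0.011), although its groups overlapped and the call ended with unique reads alone (0.24, adjusted p = 0.38). Nop56 ranged from 59.7 through 83.3 to 107 CPM, with the lowest library under all 4 untreated ones. Its change was -0.71 ± 0.14 (SE, adjusted p = 0.0015) from day 6 and 0.17 ± 0.14 (SE, adjusted p = 0.36) from untreated. Dkc1 ranged from 37.5 through 51.0 to 65.7 CPM. It fell by 0.73 ± 0.15 (SE, adjusted p = 0.0019) from day 6 and stood 0.24 ± 0.15 (SE, adjusted p = 0.22) from untreated. Nhp2 ranged from 9.48 through 15.6 to 19.2 CPM, overlapping both groups. It was above untreated by 0.54 ± 0.19 (SE, adjusted p = 0.034) and below day 6 by 0.56 ± 0.18 (SE, adjusted p = 0.027), the former a call that ended under 8 of 18 other settings.

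Rrp12 ranged from 55.7 through 82.2 to 111 CPM at day 10, so that its highest library reached the lowest of day 6. It had the largest fall from day 6, -0.74 ± 0.16 (SE, adjusted p = 0.0035), and was above untreated by 0.47 ± 0.17 (SE, adjusted p = 0.037). Heatr1 ranged from 106 through 148 to 179.8 CPM. It too was between the other groups, at 0.39 ± 0.12 (SE, adjusted p = 0.021) from untreated and -0.42 ± 0.12 (SE, adjusted p = 0.015) from day 6. The first call ended with the replicate number as a block (adjusted p = 0.0996) and without untreated replicates 1 (0.054) and 3 (0.067), and the second without day 6 replicate 3 (0.059). Pes1 ranged from 74.9 through 85.9 to 94.4 CPM. All 6 libraries were below day 6 (-0.28 ± 0.08, SE, adjusted p = 0.015), a call that ended without day 6 replicate 3 (adjusted p = 0.058), and the value against untreated was 0.16 ± 0.08 (SE, adjusted p = 0.13).

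Npm1 was the gene furthest above untreated at day 10. It ranged from 99.6 through 117 to 156 CPM, above all untreated and below all day 6 libraries. The changes were 0.55 ± 0.13 (SE, adjusted p = 0.0034) from untreated and -0.60 ± 0.12 (SE, adjusted p = 0.0022) from day 6. Ddx21 ranged from 142 through 196 to 239.5 CPM, higher than untreated by 0.49 ± 0.12 (SE, adjusted p = 0.0061) with overlap. Ncl ranged from 331 through 377 to 449 CPM. It was below every day 6 library (-0.55 ± 0.09, SE, adjusted p = 0.00038), and its value against untreated was 0.04 ± 0.09 (SE, adjusted p = 0.72). Within the day 10 group, replicate 1 was the highest library in 36 of the 46 genes and replicate 2 the lowest in 30.

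**Figure D3:**
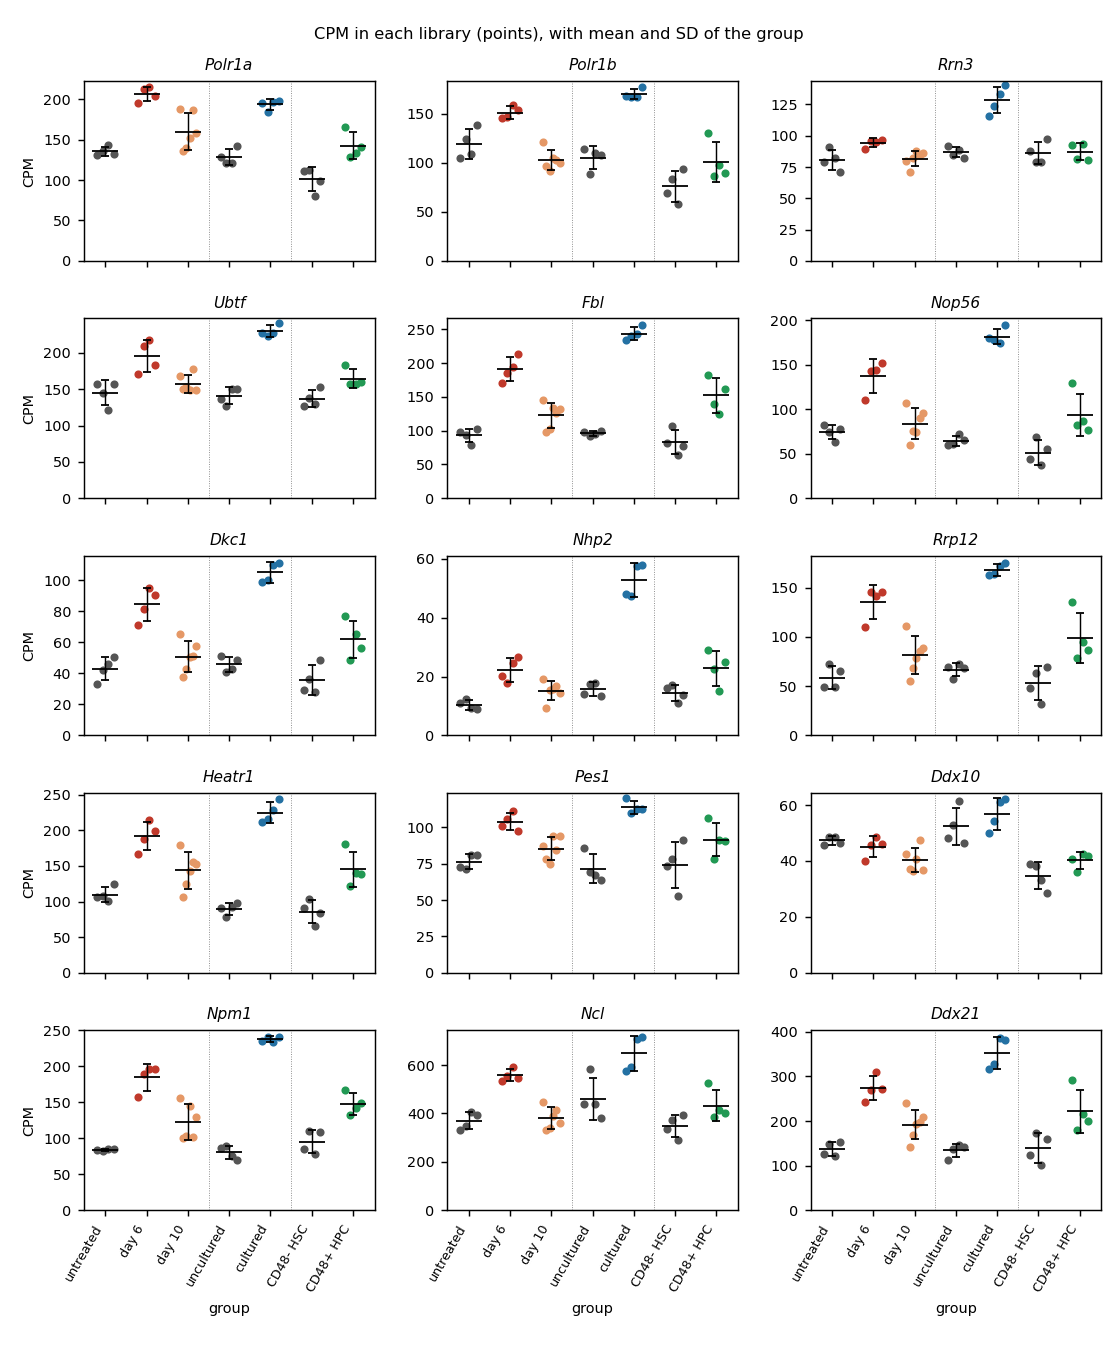
CPM of selected genes in each library of the 7 groups, with 1 point per library and bars for the group mean and SD. Cultured HSCs have the highest group mean for all genes shown but Polr1a, and day 10 means lie under day 6 means.

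The culture experiment asked how HSCs of untreated mice changed within 1 day outside the animal. It gave the largest change of these genes: 43 of the 46 rose and 0 fell, with 33.8% of all tested genes higher. In 40 every cultured library lay above every uncultured one, against 30.9% of all tested genes. The median log2 change was 0.96, with -0.01 over all tested genes. Nhp2, Npm1 and Nop56 rose most. Polr1e, Noc3l and Ddx10 did not pass. Without uncultured replicates 1 and 3, which held erythroid transcripts, 42 rose.

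Of RNA polymerase I and its factors 7 of 8 rose in culture, with a median of 0.67. Polr1a measured 129, 121, 121 and 142 CPM in uncultured and 196, 184, 197 and 198 CPM in cultured HSCs. The groups did not overlap, and the change was 0.62 ± 0.07 (SE, adjusted p = 5.9e-06). Polr1b measured 115, 88.4, 110.2 and 108 CPM uncultured and 169, 168, 167 and 178 CPM cultured. It rose by 0.72 ± 0.08 (SE, adjusted p = 6.6e-06), with every cultured library higher. Ubtf measured 137, 126, 151 and 151 CPM uncultured and 227, 223, 228 and 241 CPM cultured. The gap between the groups was wide, and the change was 0.73 ± 0.07 (SE, adjusted p = 1.6e-06). Rrn3 measured 91.8, 84.5, 89.0 and 82.6 CPM uncultured and 116, 124, 134 and 140.2 CPM cultured. It rose by 0.59 ± 0.08 (SE, adjusted p = 2.8e-05) without overlap.

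All 8 genes of the modification particles rose in culture, with medians of 1.32 for box C/D and 1.44 for box H/ACA. Fbl measured 97.8, 91.7, 94.6 and 99.4 CPM uncultured and 234, 241, 243 and 257 CPM cultured. The groups were far apart, and the change was 1.37 ± 0.06 (SE, adjusted p = 4e-09). Nop56 measured 59.4, 61.3, 72.3 and 64.9 CPM uncultured and 179.7, 178, 175 and 194 CPM cultured. It rose by 1.52 ± 0.08 (SE, adjusted p = 8.8e-09), with all cultured libraries higher. Dkc1 measured 51.0, 40.9, 42.8 and 48.7 CPM uncultured and 98.6, 100.2, 109.9 and 111 CPM cultured. Its change was 1.22 ± 0.09 (SE, adjusted p = 1.5e-07) without overlap. Nhp2 measured 14.2, 17.5, 17.97 and 13.5 CPM uncultured and 48.1, 47.4, 57.7 and 57.9 CPM cultured. This was the largest rise of the 46, 1.76 ± 0.13 (SE, adjusted p = 1.5e-07).

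Small subunit factors rose in 11 of 12 (median 0.96) and large subunit factors in 12 of 13 (median 0.81). Heatr1 measured 90.5, 78.2, 93.0 and 98.1 CPM uncultured and 212, 215, 229 and 244 CPM cultured. Its groups did not overlap, and the change was 1.35 ± 0.08 (SE, adjusted p = 2.4e-08). Pes1 measured 86.1, 69.1, 67.2 and 64.0 CPM uncultured and 120.4, 110.1, 113 and 112 CPM cultured. All cultured libraries were higher, by 0.70 ± 0.09 (SE, adjusted p = 3e-05). Ddx10 measured 48.4, 53.0, 61.5 and 46.5 CPM uncultured and 49.8, 54.4, 61.1 and 62.0 CPM cultured. The groups overlapped, and the value was 0.14 ± 0.11 (SE, adjusted p = 0.28).

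The 5 abundant nucleolar proteins and chaperones all rose in culture, with a median of 1.34. Npm1 measured 86.1, 88.7, 75.8 and 70.3 CPM uncultured and 236, 241, 234 and 241 CPM cultured. It rose by 1.59 ± 0.08 (SE, adjusted p = 8e-09), to about 3-fold, without overlap. Ncl measured 439, 584, 440.4 and 381 CPM uncultured and 575, 594, 708 and 717 CPM cultured. Uncultured replicate 2 lay above cultured replicate 1, so the groups overlapped, and the change was smaller at 0.52 ± 0.12 (SE, adjusted p = 0.0021).

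The changes in culture and at day 6 were compared within 1 fit of the 4 groups, each against its own controls. The culture change was larger in 14 of the 46 genes and smaller in 1, Wdr12. Of all 12981 tested genes, 1223 (9.42%) had a larger and 1357 a smaller culture change. The median difference over the 46 was 0.33, a value that was not set against all tested genes. The count of 15 was 8 without untreated replicate 2, 9 without day 6 replicate 1, 9 without cultured replicate 2, 8 without cultured replicate 3 and 3 when all 30 libraries were fitted together. Without uncultured replicates 1 and 3 and day 6 replicate 1, which stood out in erythroid or macrophage markers, it was 10. The untreated libraries, with erythroid sums of 3144 to 7252 CPM, were kept in that fit. The 2 experiments were made separately, so the experiment and the kind of stimulus cannot be told apart.

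Wdr75, a small subunit assembly factor, had the largest difference. It measured 34.7, 35.7, 36.9 and 38.7 CPM untreated, 47.8, 48.1, 59.8 and 51.6 CPM at day 6, 27.6, 23.99, 35.2 and 31.3 CPM uncultured and 61.2, 64.3, 73.2 and 75.7 CPM cultured. The rise was 0.51 ± 0.12 (SE) at day 6 and 1.24 ± 0.12 (SE) in culture, a difference of 0.72 ± 0.16 (SE, adjusted p = 0.0045). Rrp9, which binds the box C/D particle that guides early cleavage, measured 28.2, 32.1, 24.5 and 35.0 CPM untreated and 36.1, 36.7, 42.6 and 46.8 CPM at day 6. In the culture experiment it measured 34.1, 34.2, 33.2 and 33.2 CPM uncultured and 73.7, 63.8, 69.0 and 76.8 CPM cultured. The uncultured libraries were close together and all cultured ones far above them, and the difference between the changes was 0.65 ± 0.16 (SE, adjusted p = 0.0073). Nop56 and Heatr1 differed by 0.62 ± 0.14 (SE, adjusted p = 0.0046) and 0.52 ± 0.13 (SE, adjusted p = 0.0067), and Npm1 by 0.44 ± 0.11 (SE, adjusted p = 0.011). These 3 calls ended when all 30 libraries were fitted together (adjusted p = 0.084, 0.071 and 0.11). For Nhp2 the difference was 0.65 ± 0.22 (SE, adjusted p = 0.041), for Polr1b 0.36 ± 0.12 (SE, adjusted p = 0.046) and for Rrn3 0.35 ± 0.11 (SE, adjusted p = 0.035), and each of these 3 calls ended under at least 15 of 24 other settings.

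Wdr12, the partner of Pes1 and Bop1, also rose in both experiments, but less in culture. It measured 51.3, 47.8, 54.1 and 53.2 CPM untreated and 70.7, 72.1, 95.0 and 80.2 CPM at day 6, with no overlap. In culture it measured 70.1, 64.1, 69.0 and 71.3 CPM before and 71.1, 80.7, 80.1 and 88.0 CPM after, with overlap. The rise was 0.63 ± 0.12 (SE) at day 6 and 0.24 ± 0.08 (SE, adjusted p = 0.020) in culture. Group means were 51.6 CPM untreated and 68.6 CPM uncultured, and 79.5 CPM at day 6 and 80.0 CPM cultured. The difference was -0.40 ± 0.13 (SE, adjusted p = 0.043), a call kept under 13 of 24 other settings. Polr1a showed 0.61 at day 6 and 0.62 in culture, with a difference of -0.01 ± 0.09 (SE, adjusted p = 0.97). Differences for Ncl (-0.09 ± 0.15, SE), Dkc1 (0.23 ± 0.16, SE), Pes1 (0.24 ± 0.12, SE), Ubtf (0.28 ± 0.13, SE) and Fbl (0.32 ± 0.11, SE) did not pass.

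**Figure D4:**
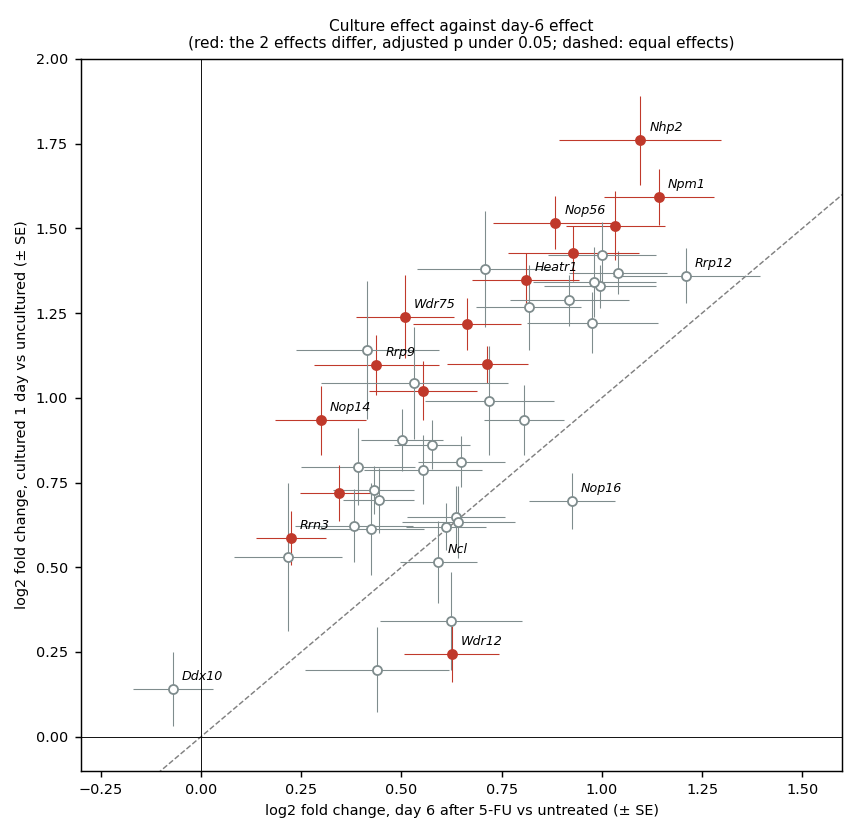
Log2 change in culture (vertical) against log2 change at day 6 (horizontal) for the 46 genes, with the line of equal change. Error bars are SE, and red points are the 15 genes whose changes differed; 14 of these lie above the line and Wdr12 below it.

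The CD48 experiment compared CD48+ HPCs with CD48- HSCs, both taken 10 days after 5-FU. All 46 genes had a higher fitted level in HPCs, and 26 passed the test, with 14% of all tested genes higher. In 24 genes the groups did not overlap, against 13.5% of all tested genes. The median log2 change was 0.52, with -0.01 over all tested genes, and none of the 46 reached 2-fold. Rrp12, Fbl and Nop56 rose most. This count depended on single libraries: it was 13 without CD48+ replicate 1, the highest HPC library in 43 of the 46 genes, and 15 without CD48- replicate 1. Without CD48- replicate 3 and CD48+ replicate 3, the libraries with erythroid and macrophage transcripts, it was 16.

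RNA polymerase I genes passed in 3 of 8, with a median of 0.33. Polr1a measured 111, 113, 80.7 and 99.3 CPM in CD48- HSCs and 166, 129, 134 and 141 CPM in CD48+ HPCs. The groups did not overlap, and the change was 0.50 ± 0.12 (SE, adjusted p = 0.010). Polr1b measured 69.7, 83.7, 57.9 and 93.4 CPM in HSCs and 131, 86.3, 98.3 and 89.7 CPM in HPCs. HPC replicates 2 and 4 lay under HSC replicate 4, and the value was 0.42 ± 0.16 (SE, adjusted p = 0.078). Ubtf measured 127, 138, 129.8 and 153 CPM in HSCs and 184, 157, 157 and 160.2 CPM in HPCs. It was higher by 0.27 ± 0.09 (SE, adjusted p = 0.046) without overlap, a call that ended under 9 of 16 other settings. Rrn3 measured 88.1, 78.9, 79.4 and 97.7 CPM in HSCs and 92.2, 81.6, 93.7 and 80.8 CPM in HPCs. The range of the HPC libraries lay within that of the HSC libraries, and the value was 0.03 ± 0.10 (SE, adjusted p = 0.87).

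Of the modification particles 4 of 4 box C/D genes (median 0.79) and 3 of 4 box H/ACA genes (median 0.67) were higher in HPCs. Fbl measured 82.1, 107, 63.8 and 77.8 CPM in HSCs and 183, 139.5, 124 and 162 CPM in HPCs. All HPC libraries were higher, by 0.89 ± 0.16 (SE, adjusted p = 0.0024), but the call ended with unique reads alone (0.49, adjusted p = 0.21). Nop56 measured 43.6, 68.3, 37.6 and 55.7 CPM in HSCs and 129, 82.0, 87.1 and 76.3 CPM in HPCs. It was higher by 0.87 ± 0.20 (SE, adjusted p = 0.0093), without overlap. Dkc1 measured 29.0, 36.5, 28.2 and 48.8 CPM in HSCs and 76.9, 48.9, 65.2 and 56.7 CPM in HPCs. The lowest HPC library was just above the highest HSC library, and the change was 0.81 ± 0.19 (SE, adjusted p = 0.0099).

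Small subunit factors passed in 6 of 12 (median 0.48) and large subunit factors in 7 of 13 (median 0.50). Rrp12 measured 48.6, 63.0, 31.7 and 69.9 CPM in HSCs and 135, 78.6, 95.2 and 87.1 CPM in HPCs. This was the largest change, 0.90 ± 0.23 (SE, adjusted p = 0.014), without overlap. Heatr1 measured 91.0, 103, 65.5 and 83.7 CPM in HSCs and 181, 122, 139.8 and 138 CPM in HPCs. Every HPC library was higher, by 0.76 ± 0.15 (SE, adjusted p = 0.0039). Pes1 measured 73.8, 78.3, 52.9 and 91.6 CPM in HSCs and 107, 78.3, 91.3 and 90.4 CPM in HPCs. The groups overlapped, and its value was 0.31 ± 0.15 (SE, adjusted p = 0.15).

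Abundant nucleolar proteins and chaperones passed in 3 of 5 (median 0.68). Npm1 measured 84.3, 109.6, 78.3 and 109 CPM in HSCs and 168, 132, 142 and 148 CPM in HPCs. It was higher by 0.64 ± 0.13 (SE, adjusted p = 0.0041), with all HPC libraries above. Ncl measured 337, 371, 289 and 395 CPM in HSCs and 527, 385, 415 and 403 CPM in HPCs. HPC replicate 2 lay under HSC replicate 4, and the value was 0.32 ± 0.12 (SE, adjusted p = 0.070).

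Intron reads, which can come from unspliced RNA, gave a second measure from the same libraries. Their origin was not tested. At day 6, 23 of the 43 genes with enough intron reads were higher and 0 lower, with 14.4% of all tested genes higher. At day 10 against untreated 7 were higher, with 10.5% of all genes higher. Against day 6, 19 were lower, with 7.69% of all genes lower. In culture 28 of 44 were higher and 2 lower, with 22.8% of all genes higher, and in HPCs 11 of 43 were higher, with 6.45% of all genes higher. The last count ranged from 1 without CD48+ replicate 1 to 11 over the libraries left out in turn. It was 6 without CD48- replicate 1, 5 without CD48- replicate 2, 3 without CD48- replicate 3 and 5 without CD48- replicate 4, and 6 and 2 without CD48+ replicates 3 and 4. Without the libraries that stood above their group in erythroid or macrophage markers, the counts of higher genes in introns were 25 at day 6, 25 in culture and 3 in HPCs. In that setting 18 were lower at day 10 against day 6. The day 10 count against untreated was 4 without untreated replicate 4, and the count against day 6 was 11 and 12 without day 6 replicates 2 and 3.

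The genes below were picked after their intron values were seen. Taf1d, a subunit of the selectivity factor of RNA polymerase I (chr9:15306199-15316997, mm10, plus strand), had 90.8% of its reads in introns, which are known to host small nucleolar RNAs. Its exon level did not pass at day 6 (23.4, 19.97, 29.5 and 20.8 CPM untreated, and 27.3, 29.6, 23.8 and 27.9 CPM at day 6). Its intron level, as a share of intron reads, was 75.9, 84.8, 76.0 and 65.1 CPM untreated and 166, 201, 197 and 208 CPM at day 6. All day 6 libraries were more than 80 CPM above the untreated ones, and the intron change was 1.37 ± 0.13 (SE, adjusted p = 7e-06), the largest of the 43. At day 10 its intron level still ranged from 142 through 174 to 208 CPM, 1.21 ± 0.12 (SE, adjusted p = 1.6e-05) above untreated. The other genes with intron reads were within 0.65 of untreated at day 10.

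Taf1d intron reads measured 80.1, 97.8, 83.9 and 81.5 CPM in uncultured and 204, 202, 224 and 232 CPM in cultured HSCs, a rise of 1.30 ± 0.09 (SE, adjusted p = 2.1e-06). They measured 133, 138, 119 and 145 CPM in CD48- HSCs and 229, 215, 199 and 210.0 CPM in CD48+ HPCs. No library overlapped there, and the change was 0.68 ± 0.09 (SE, adjusted p = 0.00076). Mybbp1a, a Myb-binding nucleolar protein that acts in ribosomal RNA synthesis, went the other way in culture. Its exon level rose from 430.0, 422, 391 and 404 CPM to 862, 883, 842 and 879 CPM, by 1.10 ± 0.05 (SE, adjusted p = 6e-09). Its intron level fell from 59.0, 71.4, 49.6 and 49.6 CPM to 39.2, 36.7, 39.6 and 43.1 CPM, by 0.56 ± 0.14 (SE, adjusted p = 0.0058). Ddx10 was the other gene with lower intron reads in culture (-0.26 ± 0.09, SE, adjusted p = 0.035). Fbl (-0.23 ± 0.21, SE) and Nhp2 (-0.01 ± 0.24, SE) did not pass in intron reads although their exon reads rose, while Nop56 rose in both (intron change 1.38 ± 0.20, SE, adjusted p = 0.00025).

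**Figure D5:**
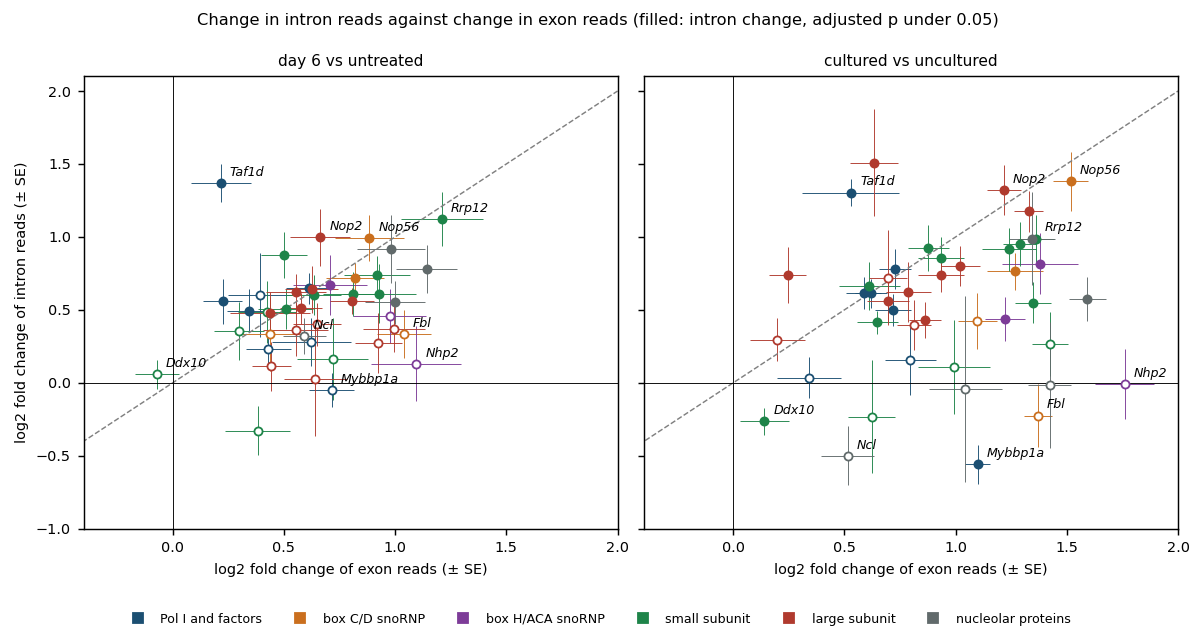
Log2 change in intron reads (vertical) against exon reads (horizontal) for the genes with enough intron reads at day 6 (left) and in culture (right), with SE bars and filled points for a called intron change. Taf1d lies far above the diagonal in both panels, and Mybbp1a lies below 0 in introns and above 1 in exons in culture.

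Other genes of the pathway and its product were described from lists. Of all tested genes, 25.7% rose at day 6, 33.8% rose in culture, 19.9% were higher at day 10 than untreated and 14% were higher in HPCs. At day 10 against day 6, 15.9% of all tested genes were lower, and 1894 of 12886 were higher. Of all tested genes, 3314 of 12886 fell at day 6, 4182 of 12386 fell in culture and 2333 of 12886 were lower at day 10 than untreated. Of 120 other ribosome biogenesis genes, 66 rose and 5 fell at day 6 (median 0.37), with Ruvbl2 at 1.05 and Tbl3 at 1.06, and 93 rose and 2 fell in culture (median 0.61). At day 10 against untreated 18 were higher and 6 lower, against day 6, 2 were higher and 55 lower, and in HPCs 39 were higher and 0 lower. Cytosolic ribosomal protein genes (79) had smaller medians in exon reads: 24 rose and 9 fell at day 6 (median 0.04), and 19 rose and 21 fell in culture (median -0.02). At day 10, 34 were higher and 2 lower than untreated (median 0.15), and 19 were higher and 0 lower than at day 6 (median 0.10). In HPCs 2 of the 79 were higher and 0 lower. Of 8 RNA polymerase II subunits 7 rose at day 6 (median 0.54) and 8 in culture (median 0.75). Of 10 RNA polymerase III subunits 2 rose and 1 fell at day 6 (median 0.09), and 6 rose and 1 fell in culture (median 0.40).

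Summed levels of cell division genes changed in the same direction as those of the 46 in each experiment, though not to the same extent. The 10 proliferation markers examined, among them Mki67, Top2a and Mcm2, summed to 640 to 1110 CPM untreated, 2643 to 3243 CPM at day 6 and 1452 to 2239 CPM at day 10. They summed to 590 to 1243 CPM uncultured and 3494 to 3741 CPM cultured, and to 950 to 1566 CPM in CD48- HSCs and 2686 to 3135 CPM in CD48+ HPCs. All 10 rose at day 6, in culture and in HPCs, against 25.7%, 33.8% and 14% of all tested genes. At day 10, 9 were above untreated, against 19.9% of all tested genes. Their mean sum was then 1877 CPM, with 847 CPM untreated, while the 46 had 3960 and 3459 CPM. The share of reads in introns was 65.1% untreated, 57.5% at day 6, 60.1% at day 10, 66.4% uncultured, 56.3% cultured, 63.6% in CD48- HSCs and 59.7% in CD48+ HPCs. The part of cell division or of the intron share in the values of the 46 genes was not tested.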

How the data were processed

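The deposited files hold, per the file headers, read counts of each gene over its exons (all reads, and unique reads apart) and over its introns. Exon counts of all reads were used, and unique exon reads served as an alternative. The authors used build mm10, per the submitters' processing notes. For the aligner and the counter, names were not given in the sources used here. Counting by strand is not stated either, so reads of overlapping genes cannot be separated. Libraries came from 100 cells, amplified and made with the Nextera XT kit, per the labels' protocols, with no molecular identifiers stated, so reads are not independent molecules.

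Counts were summed over entries of 1 gene identifier (48737 entries, 1931 genes with more than 1 entry). Tests used edgeR 4.0.16 under R 4.3.3 (filterByExpr, TMM normalisation, quasi-likelihood test, group means only), in 1 fit per experiment over 12886, 12386 and 12719 genes and in 1 fit of 4 groups (12981 genes) for the difference between culture and day 6. The p-values were adjusted by Benjamini-Hochberg over all genes tested. Of the 46 genes, 9 had under 90% unique exon reads and 3 under 50% (Fbl, Ddx18 and Npm1). Fbl, Npm1, Nop56, Pes1 and the other genes with shared reads are therefore uncertain.

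The genes and lists were chosen with earlier results of these data known. Genes named with full values were the 3 largest rises and falls of each comparison and Polr1a, Polr1b, Rrn3, Ubtf, Fbl, Nop56, Dkc1, Ncl, Npm1, Pes1 and Heatr1 in every comparison. Others named were chosen after their values were seen. Alternatives were a block for the replicate number, DESeq2 1.42.0, RLE size factors, unique reads, entries as deposited, no filter on low counts, the 2 groups fitted alone, 1 fit of all 30 libraries, and leaving out each library. Leaving out the 5 libraries with marker sums over 2 times the median of the other libraries of their group was added after seeing the data. Python 3.11.15, pandas 2.3.3, NumPy 2.4.6 and matplotlib 3.10.9 made the tables and figures.

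Some genes withheld for evaluation are not reported here.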

Additional observations from a re-analysis of the deposited data

Results flagged for a closer look

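Among the genes named with full values, 4 of 119 sets of libraries held a library apart from the others, where chance flags about 1 in 20. Polr1a was low in cultured replicate 2 (184 CPM, others 196 to 198 CPM), and Polr1b was high in cultured replicate 4 (178 CPM, others 167 to 169 CPM). Rrp12 was low in day 6 replicate 1 (109.8 CPM, others 142 to 146 CPM), the library with macrophage transcripts. Ubtf was high in CD48+ replicate 1 (184 CPM, others 157 to 160.2 CPM), the HPC library highest in 43 of the 46 genes.

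The log2 change in culture differed from that at day 6 in 15 genes, by edgeR's test of the difference itself. The difference was 0.72 for Wdr75, 0.65 for Nhp2, 0.65 for Rrp9, 0.62 for Nop14, 0.62 for Nop56, 0.54 for Nop2 and 0.52 for Heatr1. It was 0.48 for Noc4l, 0.46 for Nop10, 0.45 for Gnl3, 0.44 for Npm1, 0.37 for Mybbp1a, 0.36 for Polr1b and 0.35 for Rrn3. Wdr12 alone had a smaller change in culture, with -0.40.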

How the results depend on the processing

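Over 17 other settings at day 6, 36 to 43 of the 46 genes were called, over 16 in culture 41 to 44, and over 19 for day 10 against day 6 28 to 39, each within 1.5 times the value reported. For day 10 against untreated the count was 6 to 18 with a library left out, for CD48 13 to 30 with a library left out and 36 with all 30 libraries in 1 fit, and for the difference between culture and day 6 it was 8 to 18, and 3 with all 30 libraries in 1 fit. Without the libraries with markers of other cells the CD48 count was 16. The cause of each was not tested.

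Same-numbered libraries correlated at -0.31 to 0.16 in their deviations from the group means. Such values cannot show whether replicate numbers pair the libraries, since the spread between libraries may in part be technical. With the replicate block, day 10 against untreated gave 6 of the 46 genes, 13 other biogenesis genes and a Rrn3 value of -0.012, and 2 genes in intron reads. The block gave 11 genes in intron reads for day 10 against day 6, and 3 genes in intron reads and 1 ribosomal protein gene for CD48. The day 10 intron count against untreated was 3 with the 2 groups alone and 4 to 10 with a library left out. It was 11 to 20 for day 10 against day 6 and 1 to 11 for CD48, and 3 for CD48 without libraries with markers of other cells.

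Ribosomal protein genes called were, for day 10 against untreated, 36 as reported and 18 with unique reads. For day 10 against day 6 they were 19 as reported, 10 with no filter, 6 with all 30 libraries in 1 fit, 5 with unique reads and 10 to 24 with a library left out. In culture 40 were called as reported and 26 with unique reads. For CD48 they were 2 as reported, 7 with all 30 libraries in 1 fit, 1 with unique reads, 0 to 15 with a library left out and 1 without libraries with markers of other cells. For the difference between culture and day 6 they were 6 as reported, 5 to 12 with a library left out and 11 without libraries with markers of other cells. Other biogenesis genes called with a library left out were 21 to 45 for CD48 and 13 to 21 for that difference, and all genes called for CD48 were 2139 to 3496.

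Of 1503 values of named genes and counts of all genes in intron reads under other settings, 1359 kept their direction and side of the threshold, 97 were no longer called (64 of them differences between culture and day 6), 25 became called, 14 changed sign and 8, all counts in intron reads, moved by over 1.5 times. None of those that changed sign was called. With a library left out, day 10 against untreated gave Rrn3 from -0.043 (without untreated replicate 4) to 0.078, and Ncl from -0.0086 (without untreated replicate 1) to 0.090, with -0.0025 without day 10 replicate 1. CD48 gave Rrn3 from -0.014 (without CD48- replicate 2) to 0.092, with -0.0039 without CD48- replicate 3, -0.00096 without CD48+ replicate 1, -0.0091 without CD48+ replicate 3 and -0.044 without libraries with markers of other cells. The difference between culture and day 6 gave Polr1a 0.0038 with no filter, 0.010 and 0.0076 without untreated replicates 1 and 4, and -0.0569 to 0.028 (without uncultured replicate 4) with a library left out. Ncl there ranged from -0.19 to 0.048 (without uncultured replicate 2). The fewest exon reads in any library were 20 for Npm3, 42 for Gar1 and 50 for Nhp2, so small changes in these were not detectable at this depth.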

Other observations

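Intron and exon reads of the 79 cytosolic ribosomal protein genes gave different counts. In culture 50 of the 79 were higher and 2 lower in intron reads, with a median of 0.73, by edgeR, while 22.8% of all genes were higher and the exon counts were 19 higher and 21 lower. At day 6, 21 were higher and 2 lower in intron reads (median 0.37), while 14.4% of all genes were higher and the exon counts were 24 higher and 9 lower. At day 10 against day 6, 0 were higher and 21 lower in intron reads (median -0.43), while 7.69% of all genes were lower and the exon counts were 19 higher and 0 lower (median 0.10). In HPCs 3 were higher and 0 lower than in CD48- HSCs in intron reads, while 6.45% of all genes were higher. The other ribosome biogenesis genes had 55 higher and 6 lower of 118 in intron reads in culture (median 0.40). These are shares of intron reads.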
